A study of Homo sapiens with 18 samples.

Results

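Oxidative phosphorylation is carried out by 5 protein complexes of the inner mitochondrial membrane, and nearly all of their subunits are encoded in the nucleus. The genes described here are the rows of an ATAC-seq gene count table whose symbol starts with NDUF, UQCR, COX or ATP5 and whose description does not call them a pseudogene. COX20 was left out. This gave 106 genes of 54425 rows, from 261 rows with one of the 4 symbol starts, of which 154 were pseudogenes. By role they were 37 subunits of complex I, 8 complex I assembly factors, 9 subunits of complex III, 19 subunits of complex IV, 8 complex IV assembly factors, 20 subunits and factors of complex V, and 5 antisense, divergent or readthrough transcripts that carry such a symbol. They are called OXPHOS genes in what follows. The low count filter kept 92 of the 106 for testing.

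The cells were HEK293T, a human embryonic kidney line, with Sleeping Beauty vectors for the fusion proteins of the translocation t(4;11). MLL and AF4 are the older names of KMT2A and AFF1. MLL-AF4 cells carried an inducible MLL-AF4 construct and AF4-MLL cells an inducible AF4-MLL construct. Co-expression cells carried MLL-AF4 under constitutive control together with inducible AF4-MLL. The labels call the cells stably transfected. The study's methods say this of the constitutive MLL-AF4 vector and describe the AF4-MLL vector of the co-expression cells as added by transient transfection, without lasting selection. All cells received doxycycline at 1 µg/ml for 48 h and were sampled on day 3 and day 28, with 3 libraries in each of the 6 groups. The labels name no mock library, so each comparison is between constructs or between days. The sample titles number the libraries of a group BR1 to BR3, and the study describes its replicates as biological, without saying for these libraries at which step they were separated. The p-values measure the spread between them.

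Complex I passes electrons from NADH to ubiquinone, complex III from ubiquinol to cytochrome c, and complex IV from cytochrome c to oxygen. Protons pumped on the way drive complex V, the ATP synthase. A few core subunits are encoded by the mitochondrial genome, and the nuclear genes supply the rest together with the assembly factors. Promoters of nuclear OXPHOS genes are known as targets of NRF1, of the ETS factor GABP and of YY1, and most of them are CpG-rich and active in every cell type. ATAC-seq counts DNA fragments that a transposase could release, mostly from open chromatin. A value below is a count of such fragments at a gene and not a transcript level. How much of it is background was not measured.

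The libraries held from 442159 to 3539937 counts. Genes of the mitochondrial genome took 32.7% to 45.6% of the counts on day 3 and 63.6% to 68.5% on day 28. KMT2A, whose row can also receive fragments of the constructs, lay at 83.0 to 108 CPM (counts scaled to library size by TMM) in AF4-MLL cells of both days. Its range was 27.7 to 47.0 CPM with MLL-AF4 and 47.3 to 79.9 CPM with co-expression. AFF1, the other gene of the constructs, ran from 40.4 to 71.0 CPM with MLL-AF4. With AF4-MLL the AFF1 range was 46.2 to 65.8 CPM and with co-expression 47.0 to 62.5 CPM, so the settings overlapped. Of 5 kidney development markers none was at 0 in any library, with a summed level of 78.6 to 113 CPM. The 5 blood markers summed to 54.8 to 78.6 CPM, and the ranges of the lists met at 78.6 CPM. Among the blood markers PTPRC differed between co-expression and AF4-MLL at day 28 (log2 difference −1.22, adjusted p = 0.0063). CD3E was the one blood marker at 0 in a library.

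Promoter sequences are shown first, since an active gene is usually most accessible at its start. The region counted for each gene is not given in the sources used here. RefSeq (GRCh38.p14) gave a promoter for 86 of the 106 genes, taken as 250 bases before and 50 bases after the farthest upstream start. Each was searched on both strands for CGCANGCG (NRF1), CCGGAAG (GABP and other ETS factors), GATGGCG (YY1), GGGCGG (SP1) and CCAAT (NF-Y). The NRF1 motif was found in 28 of the 86 promoters (32.6%), against 14.3% of the promoters of 15843 protein-coding genes and 10.6% of all 27305 promoters. For GABP the shares were 27.9% (24 promoters), 14.2% and 10.6%. YY1 motifs were found in 12.8% (11 promoters), against 5.66% and 4.32%. The shares for SP1, at 59.3% against 58.3% of protein-coding genes, and for NF-Y, at 39.5% against 36.4%, lay close together. GC content was 60.1% in the OXPHOS promoters, 61.3% in those of protein-coding genes and 57.2% in all. In 1 OXPHOS promoter a pair of motifs overlapped, and 5 held none of the 5 motifs. NRF1 motifs were found in 10 of 32 promoters of complex I subunits, 4 of 7 of complex III, 2 of 15 of complex IV subunits and 6 of 14 of complex V. The 86 promoters include 4 of antisense or divergent transcripts. COX10 and COX10-AS1 held the same motifs, as did NDUFA6 and NDUFA6-DT, so shared DNA may be counted for both genes of a pair. A match is a description of letters and was not tested for binding.

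The 100 bases before the start are printed for 7 genes, 5′ to 3′ on the strand of the gene, with the motifs in capitals. COX18, NDUFA11 and ATP5PB are 3 of the 4 genes called in a comparison. The window of the fourth, ATP5PD, lies within the neighbouring gene KCTD2 and is not printed. NDUFB10 had the smallest p-value for co-expression against MLL-AF4 on day 3. UQCRC1 and COX14 had the highest mean CPM of their role. COX15, which carries both an NRF1 and a GABP motif, was chosen after its values were seen.
COX18 (chr4:73069760-73069859, minus strand): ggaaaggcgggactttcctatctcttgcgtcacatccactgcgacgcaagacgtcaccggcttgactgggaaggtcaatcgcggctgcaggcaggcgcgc
NDUFA11 (chr19:5903791-5903890, minus strand): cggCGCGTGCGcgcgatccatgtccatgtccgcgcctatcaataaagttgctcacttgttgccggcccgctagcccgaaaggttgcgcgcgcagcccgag
ATP5PB (chr1:111449364-111449463, plus strand): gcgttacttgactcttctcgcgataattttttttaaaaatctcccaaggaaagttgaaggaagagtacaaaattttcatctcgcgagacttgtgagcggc
NDUFB10 (chr16:1959438-1959537, plus strand): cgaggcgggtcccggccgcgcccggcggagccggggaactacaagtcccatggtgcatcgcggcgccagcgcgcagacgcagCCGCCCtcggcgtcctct
UQCRC1 (chr3:48609647-48609746, minus strand): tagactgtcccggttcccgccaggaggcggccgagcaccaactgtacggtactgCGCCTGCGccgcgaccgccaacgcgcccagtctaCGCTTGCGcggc
COX14 (chr12:50112136-50112235, plus strand): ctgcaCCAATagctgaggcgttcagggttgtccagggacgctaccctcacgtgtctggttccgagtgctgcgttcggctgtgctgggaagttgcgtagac
COX15 (chr10:99732128-99732227, minus strand): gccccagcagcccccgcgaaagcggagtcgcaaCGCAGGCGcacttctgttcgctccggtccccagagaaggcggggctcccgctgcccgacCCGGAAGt
The capitals mark an NRF1 motif in NDUFA11, a pair of NRF1 motifs in UQCRC1, an SP1 motif in NDUFB10, an NF-Y motif in COX14, and an NRF1 and a GABP motif in COX15. COX18 and ATP5PB hold none of the 5 motifs in these 100 bases. In the longer promoters searched above, COX18 held an NRF1 motif and ATP5PB an SP1 motif.

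The 92 tested genes had between 151 and 1988 counts in all 18 libraries together and a median of 25 counts per library, against 21 for all genes tested. Their mean level ran from 6.32 to 82.7 CPM with a median of 18.6, against 16.9 CPM for all genes tested. OXPHOS genes are short, with a median RefSeq span of 11.2 kb against 30.4 kb. Per kb of span their median level was 1.72 CPM, against 0.582 CPM for all genes tested. This gap comes with the shorter spans, as the medians before division lay close together. The level did not follow the span, with a Spearman rho of −0.027 across 91 OXPHOS genes and 0.059 across 15487 genes, a description across genes that are not independent. Of the 92 genes, 42 overlap another RefSeq gene, and ATAC-seq reads carry no strand to separate them. How reads in an overlap were counted is not given in the sources used here.

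Levels spread widely within each complex. Among complex I subunits the mean ran from 6.32 CPM at NDUFS5 to 68.8 CPM at NDUFB2, a membrane-arm subunit on chromosome 7 (chr7:140696708-140706643) that overlaps its antisense transcript NDUFB2-AS1. NDUFAF3, an assembly factor at chr3:49020452-49023495 that overlaps DALRD3 and MIR191, had the highest mean of all OXPHOS genes at 82.7 CPM, and NDUFAF4 the lowest of its group at 13.0. UQCRC1, a core subunit of complex III, had 35.8 CPM and UQCRH 12.8. In complex IV the range was from 9.59 CPM at COX5B to 54.9 CPM at COX7A2L, which is known for joining complexes III and IV into supercomplexes. Among its assembly factors it ran from 8.48 CPM at COX10 to 43.2 CPM at COX14. ATP5MC2, 1 of 3 genes that encode the same subunit c of the rotor ring, led complex V at 69.8 CPM and ATP5PO, of the stalk, was lowest at 7.22. The antisense transcripts lay between 16.0 CPM at COX10-AS1 and 46.3 CPM at NDUFB2-AS1. These levels are not corrected for the length of the gene.

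The genes that lead their group differed in how far their 18 libraries spread. COX14 lay between 33.3 and 51.9 CPM, and its groups overlapped throughout. COX7A2L lay between 41.2 and 63.0 CPM, with overlapping groups in each of the 9 comparisons of groups. ATP5MC2 had its highest library, 93.6 CPM, and its lowest, 52.0 CPM, both in MLL-AF4 cells on day 3, so that this group alone spanned the range of the other 5. UQCRC1 lay between 30.1 and 49.5 CPM on day 3 and between 27.3 and 42.6 CPM on day 28. With MLL-AF4 the libraries of its days did not overlap, and the log2 difference of −0.44 was not called (adjusted p = 0.26).

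The 14 genes that did not pass the filter had at most 83 counts over all libraries and a mean of at most 4.61 per library. Of these, 6 are isoforms known from other tissues. COX4I2 is the lung form of subunit 4, COX6A2 and COX7A1 are heart and muscle forms, and COX6B2, COX7B2 and COX8C are testis forms. Their mean counts per library were 2.06, 0.556, 1.44, 4.50, 0.50 and 0.667, and COX7B2 was at 0 in 13 libraries, COX6A2 in 11 and COX8C in 9. The forms of these subunits known from most tissues, COX4I1, COX6A1, COX6B1, COX7A2 and COX7B, all passed. The other 8 were ATP5MF-PTCD1, ATP5MGL, UQCRHL, COX16, COX8A, NDUFA7, NDUFS6 and UQCR11, at means of 2.0 to 4.61 counts. COX8A, the common form of subunit 8, was thus among the genes of the set with the lowest counts, at 2.0 per library, and was not tested. These counts are not corrected for gene length, and 5 of the 14 genes overlap another RefSeq gene. A low count here therefore does not show closed chromatin.

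As a whole the OXPHOS genes took a nearly constant share of the counts on protein-coding genes. In MLL-AF4 cells the share was 0.662% ± 0.0194 (SD, n = 3) on day 3 and 0.635% ± 0.00586 on day 28. AF4-MLL cells had 0.664% ± 0.00818 and 0.623% ± 0.012, and co-expression cells 0.7002% ± 0.0237 and 0.670% ± 0.00463. The log2 ratios of day 28 over day 3 were −0.059, −0.091 and −0.064. Against all counts outside the mitochondrial genome the same genes gave 0.517%, 0.523% and 0.548% on day 3 and 0.432%, 0.424% and 0.452% on day 28, with log2 ratios of −0.26, −0.30 and −0.28. The latter denominator holds 397 nuclear rows that are copies of mitochondrial genes and can receive mitochondrial reads. These rows took 4.52% to 7.80% of it on day 3 and 16.3% to 20.2% on day 28. With the protein-coding denominator the day 3 and day 28 libraries did not overlap in any setting. They lay at 0.649% to 0.684% and 0.632% to 0.642% in MLL-AF4 cells and at 0.675% to 0.721% and 0.665% to 0.674% in co-expression cells. The gap was widest in AF4-MLL cells, at 0.656% to 0.673% and 0.616% to 0.637%. These shares are a description and were not tested.

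**Figure D1:**
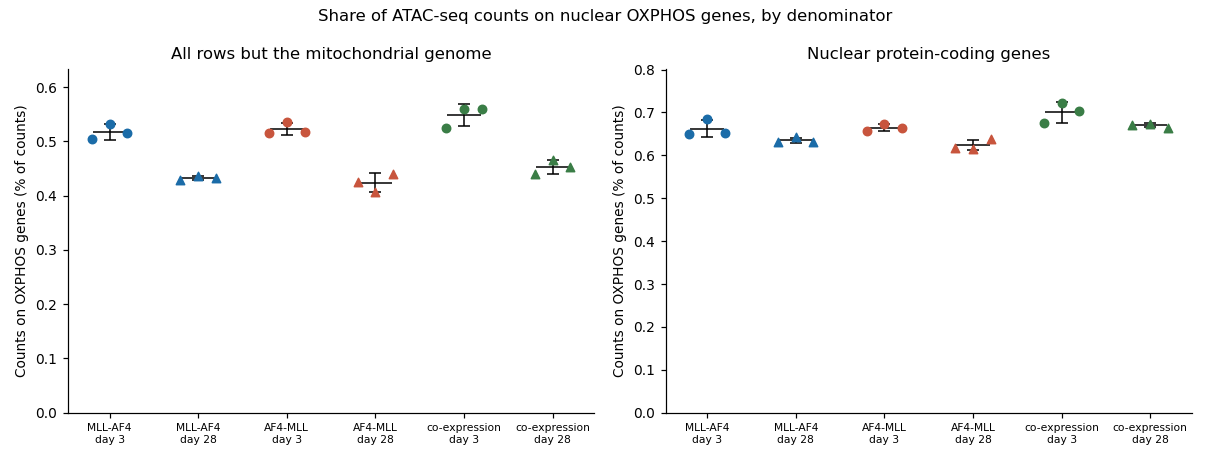
Counts on OXPHOS genes as a percentage (y axis) of all counts outside the mitochondrial genome and of counts on nuclear protein-coding genes, for the 6 groups (x axis). Points are libraries and bars the mean and SD of 3. The day 28 groups are lower by log2 −0.26 to −0.30 with the first denominator and by −0.059 to −0.091 with the second.

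Day 28 was compared with day 3 to find differences between the days. Without an uninduced library, a change that lasted cannot be told apart from no change. The end of the induction also cannot be told apart from the time in culture. In MLL-AF4 cells 3 of 92 OXPHOS genes were called at an adjusted p under 0.05, as were 2.87% of all 17660 genes tested by edgeR's quasi-likelihood test. COX18 was lower on day 28, and ATP5PD and NDUFA11 were higher. With the library size as the only scaling 64 OXPHOS genes were called, 0 higher and 64 lower, beside a median of −0.87 for all genes. TMM scaling gave 0.0044 for that median, and directions between the days are relative to it. In bulk chromatin, a locus that is open in more cells and a locus that is more open in each cell cannot be told apart.

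COX18 (ENSG00000163626, chr4:73052362-73069759) encodes the insertase that places part of the complex IV subunit COX2 into the inner membrane. Its MLL-AF4 libraries gave 39.1, 40.6 and 39.3 CPM on day 3, then 24.7, 23.4 and 23.3 CPM on day 28. The 3 libraries of each day lay within 2 CPM of each other and the days did not overlap. It fell by 0.73 on the log2 scale (SE 0.21, adjusted p = 0.030), where the median of its neighbouring tested genes was −0.22. In AF4-MLL cells it had 35.6, 43.4 and 33.1, then 27.3, 36.5 and 29.3 CPM. Co-expression cells gave 40.0, 38.0 and 29.4, then 34.8, 30.5 and 26.6 CPM. Those days overlapped in both settings. Leaving out any of the 6 MLL-AF4 libraries kept the difference, at −0.76 to −0.72, and ended the call, with adjusted p from 0.060 (without replicate 1 of day 28) to 0.106 (without replicate 2 of day 28). The call also ended without a filter on low counts (−0.68, adjusted p = 0.17).

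ATP5PD (ENSG00000167863, chr17:75038863-75046969) encodes subunit d of the ATP synthase stalk and overlaps KCTD2 and RN7SL573P. Its MLL-AF4 libraries had 7.8, 8.9 and 16.2 CPM on day 3 and 26.4, 20.6 and 22.4 CPM on day 28. Day 3 was the lowest of all groups here, at 7 to 14 counts per library, and the days did not overlap. The log2 difference was 1.05 (SE 0.30, adjusted p = 0.030), against a neighbour median of 0.11. AF4-MLL cells, at 10.4, 20.2 and 17.0, then 16.3, 17.7 and 19.5 CPM, and co-expression cells, at 19.3, 20.1 and 12.3, then 14.6, 16.8 and 17.3 CPM, overlapped between the days. The call ended without replicate 1 or 2 of day 3 (log2 0.84 and 0.93, adjusted p = 0.24 and 0.15) and without replicate 1 or 3 of day 28 (0.95 and 1.06, adjusted p = 0.12 and 0.058). It also ended with the library size as the only scaling (0.18, adjusted p = 0.63), under the loess offset (0.95, adjusted p = 0.066) and without a filter on low counts (1.11, adjusted p = 0.058).

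NDUFA11 (ENSG00000174886, chr19:5891229-5903790) encodes a membrane-arm subunit of complex I. With MLL-AF4 it had 15.6, 30.4 and 30.1 CPM on day 3, followed by 47.8, 37.9 and 41.2 CPM on day 28. All day 28 libraries lay above all day 3 libraries, and replicate 1 of day 3 stood below the others. The difference was 0.73 (SE 0.21, adjusted p = 0.032), though −0.14 with the library size as the only scaling, and the neighbouring genes on chromosome 19 had a median of 0.51 in the same comparison. Without replicate 1 of day 3 it was 0.46 (adjusted p = 0.40), and without replicate 1 or 3 of day 28 it was 0.64 and 0.74 (adjusted p = 0.14 and 0.063). Without a filter on low counts it was 0.79 (adjusted p = 0.056). Co-expression cells had 44.0, 37.3 and 31.4, then 37.1, 33.6 and 42.5 CPM, and AF4-MLL cells 34.0, 31.8 and 30.1, then 28.7, 27.6 and 36.3 CPM, with overlapping days in both. DESeq2's Wald test called 2 of these 3 genes, COX18 and NDUFA11, and gave no adjusted p for ATP5PD.

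**Figure D2:**
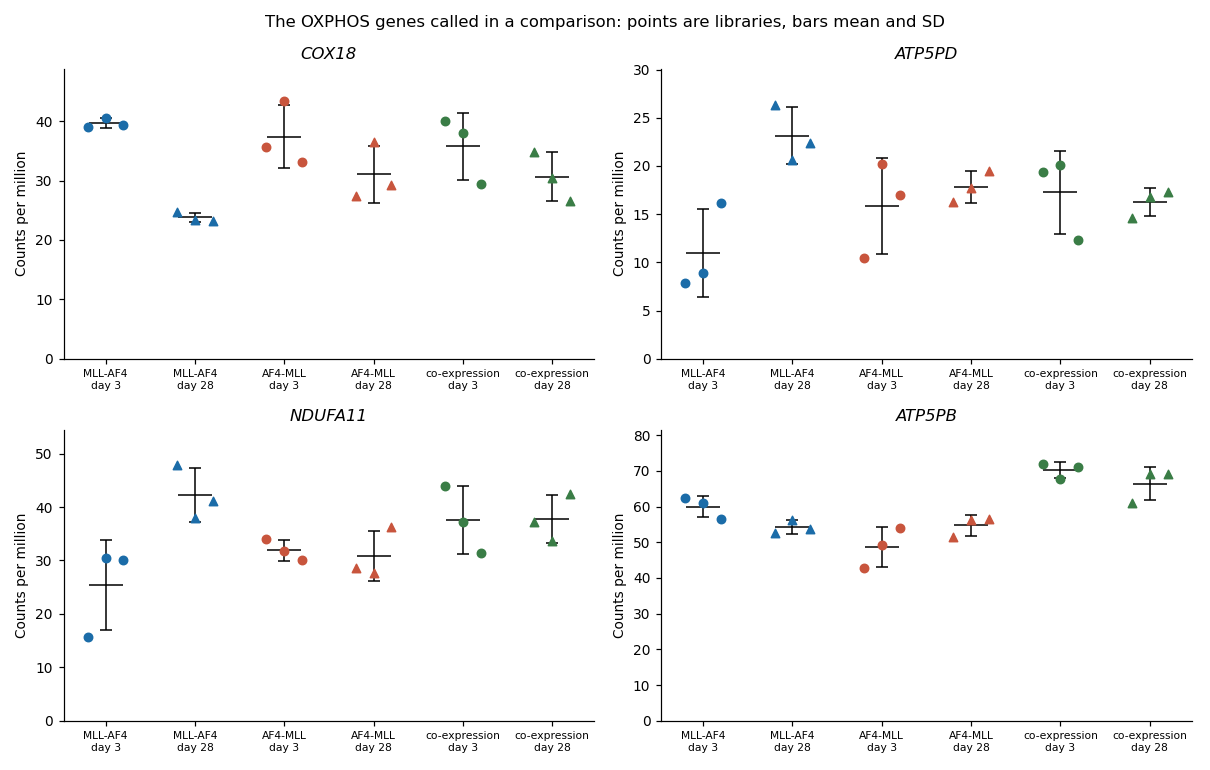
CPM (y axis) of the 4 OXPHOS genes called in a comparison, in the 6 groups (x axis), with libraries as points and the mean and SD of 3 as bars. COX18 is lower and ATP5PD and NDUFA11 are higher on day 28 in MLL-AF4 cells, and ATP5PB is highest in co-expression cells, at 67.9 to 72.0 CPM on day 3.

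The other OXPHOS genes of this comparison did not pass the adjusted threshold. At an unadjusted p under 0.05, 3 genes (3.26%) were higher and 11 (11.96%) lower on day 28, against 7.35% and 8.41% of all genes. The lower ones included NDUFA4, now counted as a complex IV subunit (log2 −0.82, adjusted p = 0.099), UQCRQ of complex III (−0.57) and NDUFB2 (−0.47, adjusted p = 0.069), and COX19, a factor of copper delivery to complex IV, was among the higher ones (0.84, adjusted p = 0.109). The median difference of the 92 genes was 0.00, with 46 above 0, and that of all genes 0.0044.

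AF4-MLL cells had 0 of 92 OXPHOS genes called between the days by edgeR and 0 by DESeq2, where edgeR called 0.606% of all genes. With the library size as the only scaling 87 were called, all lower, beside a median of −1.06 for all genes. At an unadjusted p under 0.05 there were 1 higher (1.09%) and 5 lower (5.43%), against 4.67% and 4.61% of all genes. NDUFB2 had the smallest p-value. It had 76.7, 83.9 and 76.3 CPM on day 3 and 62.5, 49.7 and 67.0 CPM on day 28, without overlap. The difference was −0.40 (SE 0.13, adjusted p = 0.21) and the median of its neighbours 0.17. COX15, the heme A synthase of complex IV assembly, had −0.74, NDUFS3, a core subunit of complex I, −0.72 and ATP5MC1, of subunit c, −0.61. The complex I assembly factor NDUFAF5 was the higher one, at 0.46. The median over the 92 genes was −0.056, with 35 above 0.

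In co-expression cells, again, 0 of 92 were called by edgeR and 0 by DESeq2, against 0.606% of all genes by edgeR. With the library size as the only scaling 90 were called, all lower, beside a median of −1.07 for all genes. There were 2 higher (2.17%) and 5 lower (5.43%) at an unadjusted p under 0.05, against 4.71% and 4.81%. NDUFA10, a complex I subunit at chr2:239892442-240025342, had 7.33, 9.69 and 8.88 CPM on day 3 and 12.7, 22.4 and 17.3 CPM on day 28. The days did not overlap, and the difference was 0.98 (SE 0.30, adjusted p = 0.11, neighbour median 0.06). Without replicate 1 of day 28 it was 1.26 and was called (adjusted p = 0.040). In MLL-AF4 and AF4-MLL cells NDUFA10 lay between 6.69 and 14.5 CPM with overlapping days. The median over the 92 genes was −0.060, with 34 above 0.

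NDUFB2 and NDUFAF3 were lower on day 28 at an unadjusted p under 0.05 in each of the 3 settings, which share no library in these comparisons. NDUFB2 had 71.4, 88.8 and 72.8, then 60.2, 49.1 and 61.8 CPM with MLL-AF4, and 75.3, 75.3 and 81.3, then 69.1, 60.4 and 57.2 CPM with co-expression, without overlap between the days. Its differences were −0.47, −0.40 and −0.28 for MLL-AF4, AF4-MLL and co-expression. NDUFAF3 had differences of −0.35, −0.30 and −0.33. It lay at 82.4 to 110 CPM in the 9 libraries of day 3 and at 63.8 to 84.1 CPM in the 9 of day 28. None of these 6 differences passed the adjusted threshold. The pair was picked out after the values were seen, and the share of all genes that repeat in this way was not counted. Standard errors of the pair were 0.12 to 0.15, against OXPHOS medians of 0.236 to 0.277 in these comparisons. Smaller differences therefore reach the unadjusted threshold here than at most OXPHOS genes.

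Co-expression cells were set against the cells with either fusion alone. They differ from MLL-AF4 cells also in carrying MLL-AF4 under constitutive in place of inducible control. On day 28 the induction had ended in all groups, and only co-expression cells carried a constitutive fusion. Joint presence of the proteins cannot be told apart from these differences. On day 3, 1 of 92 OXPHOS genes was called against AF4-MLL cells, where 1.28% of all genes were. This was ATP5PB (ENSG00000116459, chr1:111449464-111462773), which encodes subunit b of the ATP synthase stalk. Co-expression libraries had 72.0, 67.9 and 71.0 CPM and AF4-MLL libraries 42.7, 49.2 and 53.9 CPM, without overlap. The log2 difference was 0.56 (SE 0.14, adjusted p = 0.021), while the neighbouring genes had a median of −0.03. MLL-AF4 cells lay between, at 62.5, 60.9 and 56.6 CPM. DESeq2's Wald test gave 0.55 for ATP5PB with an adjusted p of 0.139 and called 0 OXPHOS genes here. With the library size as the only scaling the difference was 0.53 (adjusted p = 0.23). The call also ended without replicate 1 of the AF4-MLL cells (0.43, adjusted p = 0.30) and without replicate 1 or 3 of the co-expression cells (0.54 and 0.55, adjusted p = 0.068 and 0.081). On day 28 ATP5PB had 61.1, 69.1 and 69.1 CPM in co-expression cells, 51.4, 56.3 and 56.5 in AF4-MLL cells and 52.7, 56.3 and 53.7 in MLL-AF4 cells. The co-expression libraries again lay above the others, and the differences were not called.

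At an unadjusted p under 0.05, 5 OXPHOS genes (5.43%) were higher with co-expression than with AF4-MLL alone on day 3 and 0 were lower, against 5.89% and 6.43% of all genes. Beside ATP5PB these were NDUFS5 (1.19) and NDUFB10 (0.38) of complex I, and ATP5F1E (0.75) and ATP5F1C (0.57), the epsilon and gamma subunits of the ATP synthase. The median of the 92 genes was 0.088, with 55 above 0. With genes at a mean of at least 30 counts, of which 37 were OXPHOS genes, the median relative to all genes was −0.060.

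Against MLL-AF4 cells on day 3, 0 of 92 OXPHOS genes were called by edgeR and 0 by DESeq2, where edgeR called 1.81% of all genes. There were 9 higher (9.78%) and 1 lower (1.09%) at an unadjusted p under 0.05, against 7.05% and 7.47%. NDUFB10, a membrane-arm subunit of complex I at chr16:1959538-1961975, was nearest to the threshold. It had 64.0, 70.1 and 54.6 CPM in co-expression cells and 46.9, 38.1 and 41.6 CPM in MLL-AF4 cells, without overlap. The difference was 0.57 (SE 0.17, adjusted p = 0.052) and the median of its neighbours 0.30. It was called without a filter on low counts (0.70, adjusted p = 0.023), among genes averaging 30 counts or more (0.55, adjusted p = 0.041) and without replicate 3 of the co-expression cells of day 3 (0.67, adjusted p = 0.037) and of day 28 (0.57, adjusted p = 0.0498). The other higher genes included ATP5F1E (0.89), NDUFAF1 (0.82), COX4I1 (0.70), ATP5MC1 (0.66) and ATP5PD (0.64), and the lower one was COX7A2 (−0.49). The median of the 92 genes was 0.102, with 56 above 0, and among the genes with at least 30 counts the median relative to all genes was −0.0059. Both comparisons of day 3 use the same 3 co-expression libraries.

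The single fusions differed in 0 of 92 OXPHOS genes on day 3 by edgeR and in 0 by DESeq2, where edgeR called 0.142% of all genes. At an unadjusted p under 0.05 there were 0 higher and 4 lower (4.35%) in AF4-MLL cells, against 4.73% and 4.82%. COX7A2, the form of subunit 7A found in most tissues, had the smallest p-value, at 15.9, 24.6 and 17.0 CPM in AF4-MLL cells and 27.9, 27.9 and 27.7 CPM in MLL-AF4 cells. All AF4-MLL libraries lay below the MLL-AF4 libraries, and the difference was −0.63 (SE 0.26, adjusted p = 0.39). The remaining 3 were the complex I subunits NDUFS4 (−1.02), NDUFA12 (−0.68) and NDUFA5 (−0.45).

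On day 28 co-expression cells had 0 OXPHOS genes called against MLL-AF4 cells and 0 against AF4-MLL cells, by edgeR and by DESeq2, where edgeR called 1.17% and 1.69% of all genes. Against MLL-AF4 cells 8 were higher (8.70%) and 2 lower (2.17%) at an unadjusted p under 0.05, beside 5.7% and 6.13% of all genes. Against AF4-MLL cells 7 were higher (7.61%) and 2 lower (2.17%), beside 6.02% and 6.68%. Both comparisons use the same 3 co-expression libraries.

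NDUFAF1, a complex I assembly factor on chromosome 15 (chr15:41387353-41403026), had 16.0, 18.1 and 21.3 CPM in co-expression cells on day 28. It had 11.5, 6.14 and 10.7 CPM in MLL-AF4 cells and 16.9, 8.29 and 9.77 CPM in AF4-MLL cells, so the groups did not overlap for the former and did for the latter. The differences were 0.97 (SE 0.30, adjusted p = 0.079) and 0.61. Its neighbours on chromosome 15 had medians of 0.56 and 0.64 in the same comparisons. ATP5MC1 (chr17:48892787-48895871), which encodes subunit c, was the OXPHOS gene with the smallest p-value against AF4-MLL cells. It had 20.2, 23.0 and 22.6 CPM in co-expression cells and 11.1, 15.5 and 14.0 CPM in AF4-MLL cells, without overlap, with a difference of 0.67 (SE 0.24, adjusted p = 0.15) and a neighbour median of 0.18. Others that were higher were NDUFS8 (0.56), a core subunit of complex I, and ATP5MPL (0.70) against MLL-AF4 cells, and ATP5F1B (0.56), the catalytic beta subunit, and NDUFB6 (0.52) against AF4-MLL cells. COX10-AS1 was lower in both comparisons (−0.63 and −0.53). Between the single fusions 0 OXPHOS genes were called on day 28 by edgeR and 0 by DESeq2, where edgeR called 0.0793% of all genes, with 2 higher (2.17%) and 3 lower (3.26%) in AF4-MLL cells at an unadjusted p under 0.05, against 4.38% and 3.88%. NDUFA11 was one of these, at −0.45 (SE 0.17, adjusted p = 0.45).

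**Figure D3:**
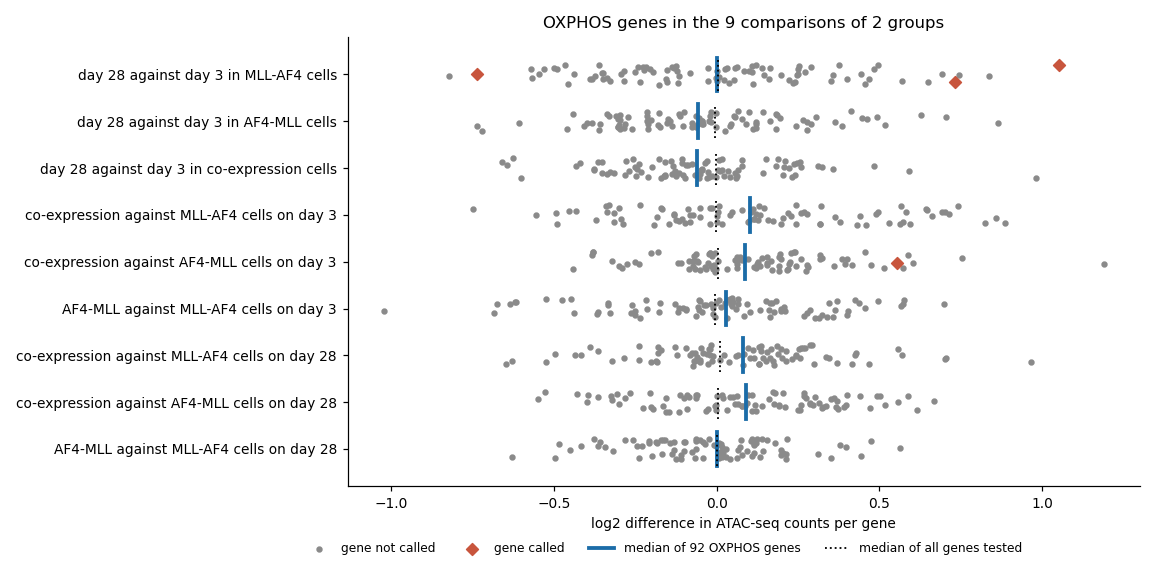
Log2 differences (x axis) of the 92 tested OXPHOS genes in the 9 comparisons of 2 groups (y axis). Diamonds are the called genes, the solid line is the median of the OXPHOS genes and the dotted line that of all genes tested. The OXPHOS medians lie between −0.060 and 0.102 and the all-gene medians within 0.01 of 0.

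The spread of the OXPHOS genes was wide against these medians. Their median standard error ran from 0.236 to 0.287 over the 9 comparisons of groups, and between 46 and 58 of the 92 lay above 0 where co-expression cells or the single fusions were compared with each other. Per library, the median of the OXPHOS genes relative to that of all genes was 0.035, 0.121 and 0.070 (log2) in co-expression cells on day 3 and 0.010, 0.014 and 0.005 on day 28. It was −0.036, 0.041 and −0.019 and then −0.052, −0.048 and −0.028 in MLL-AF4 cells, and −0.041, 0.013 and 0.004 and then −0.091, −0.080 and −0.029 in AF4-MLL cells. The pooled SD within groups was 0.031. Among the 49 tested genes that overlap no other RefSeq gene, the median difference of co-expression from MLL-AF4 on day 28 was −0.014, where it was 0.082 for all 92.

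By role, the complex V genes had the largest medians in the 4 comparisons of co-expression cells with a single fusion. On day 3 their median was 0.26 against MLL-AF4 cells and 0.22 against AF4-MLL cells, each with 14 of 19 above 0. On day 28 it was 0.17 with 12 of 19 above 0, and 0.30 with 18 of 19 above 0. Relative to their neighbouring genes these medians were 0.23, 0.16, 0.13 and 0.23. Complex I subunits had medians of 0.0090, 0.062, 0.096 and 0.16 in the same order, and complex III subunits 0.145, −0.0058, −0.026 and −0.0013. Complex IV subunits had 0.16, 0.19, 0.083 and −0.044. In the comparisons of the days all complex V medians lay between −0.053 and 0.053. These medians are over genes and carry no test, and ATP5PB is the 1 complex V gene called in any of the 4. Both comparisons of a day use the same 3 co-expression libraries, so they are not independent. Among genes averaging 30 counts or more, the day 3 medians of all OXPHOS genes relative to all genes were −0.0059 and −0.060.

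**Figure D4:**
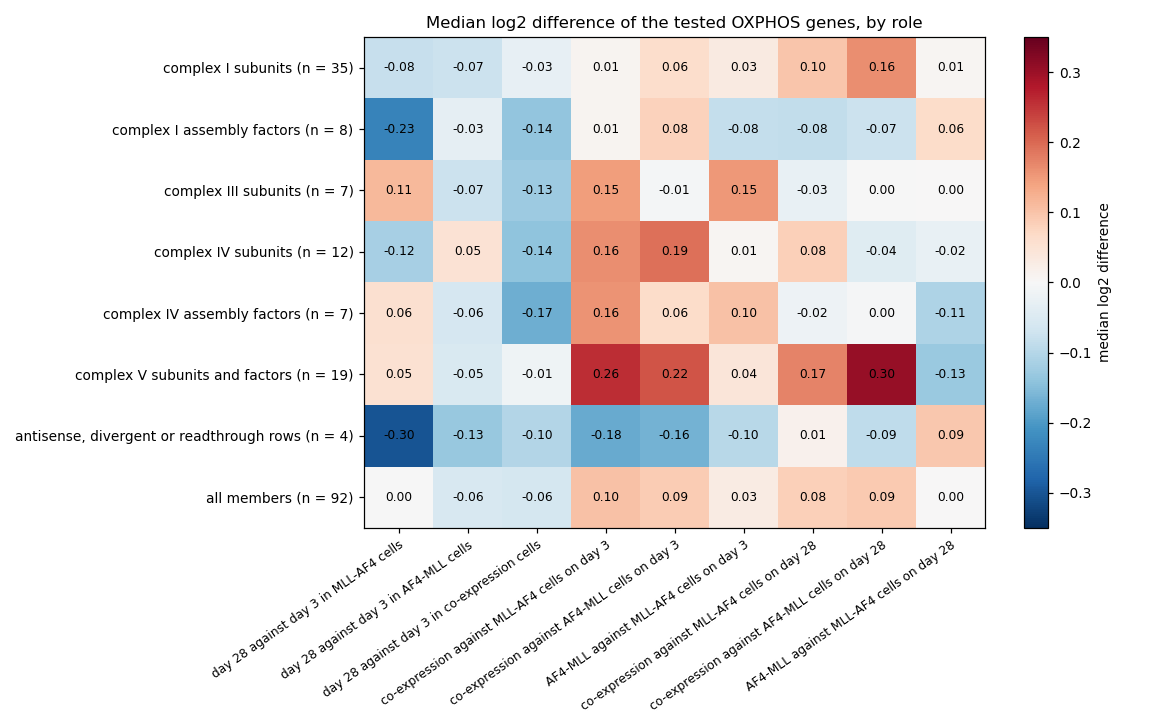
Median log2 difference (colour and printed value) of the tested OXPHOS genes in each role (rows, with the number of genes) and comparison of 2 groups (columns). Complex V stands at 0.17 to 0.30 in the 4 comparisons of co-expression cells with a single fusion. Both comparisons of a day share their co-expression libraries.

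Interactions tested whether the change from day 3 to day 28 differed between settings. Of the 92 OXPHOS genes 0 were called in any of the 3 by edgeR and 0 by DESeq2, where edgeR called 0.232% of all genes for co-expression against MLL-AF4 cells, 0.0% for co-expression against AF4-MLL cells and 0.317% for AF4-MLL against MLL-AF4 cells. At an unadjusted p under 0.05 the first had 1 OXPHOS gene higher (1.09%) and 4 lower (4.35%), against 5.01% and 4.73% of all genes. The second had 2 higher and 2 lower (2.17% each), against 2.68% and 2.37%, and the third 1 higher (1.09%) and 2 lower (2.17%), against 4.98% and 4.77%. The time changes of ATP5PD and NDUFA11 were smaller in co-expression than in MLL-AF4 cells by −1.17 (adjusted p = 0.23) and −0.76 (adjusted p = 0.27), and that of COX18 was less negative by 0.56. For NDUFA11 the difference of AF4-MLL from MLL-AF4 cells was −0.81 (adjusted p = 0.26). No difference between settings in the time change of COX18, ATP5PD or NDUFA11 passed the test.

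Other nuclear genes of the pathway were read from the same table. Of 54 tested, 6 were complex II subunits, cytochrome c or cytochrome c1, 40 assembly factors with other symbols and 8 regulators. GABPA, which encodes the DNA-binding subunit of GABP, was the 1 gene of the 54 called in any of the 12 comparisons. With MLL-AF4 it had 77.0, 69.8 and 69.4 CPM on day 3 against 38.7, 46.3 and 56.4 CPM on day 28, without overlap. It fell by 0.62 (SE 0.16, adjusted p = 0.013), in a comparison where edgeR called 2.87% of all genes. In AF4-MLL cells it had 46.6, 36.2 and 49.3, then 50.1, 48.6 and 37.7 CPM. Co-expression libraries had 39.3, 64.9 and 55.3, then 48.4, 53.5 and 42.5 CPM. Day 3 of the MLL-AF4 cells lay above every other library, and its difference to AF4-MLL cells on day 3 was near the threshold (−0.66 in AF4-MLL cells, adjusted p = 0.052). The change over time was not shown to differ from that of AF4-MLL cells (interaction 0.63, adjusted p = 0.27) or co-expression cells (0.52, adjusted p = 0.39). The call ended without replicate 1 of day 3 (−0.57, adjusted p = 0.105) and without replicate 1 or 2 of day 28 (−0.52 and −0.61, adjusted p = 0.102 and 0.060), and when no filter on low counts was applied (−0.57, adjusted p = 0.091). The first list had 0 of 6 called in every comparison, with 1 lower at an unadjusted p under 0.05 over time with MLL-AF4, and 1 higher and 2 lower with co-expression. The 40 assembly factors had 0 called in every comparison, with 0 to 4 on either side at an unadjusted p under 0.05. Of all genes, 2.37% to 8.41% lay on either side at that threshold over the 12 comparisons. Their median differences ran from −0.131 to 0.074 in the comparisons of groups.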

How the data were processed

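The authors deposited 1 table of raw counts, whole numbers of ATAC-seq reads per gene in 18 libraries. Per the labels, reads were processed with bcl2fastq, Bowtie2 and HTSeq on build GRCh38. Versions, annotation release, counted feature, duplicate handling and the shift to the insertion site are not given in the sources used here. Counts were fitted in R 4.3.3 with edgeR 4.0.16 (TMM, filterByExpr with minimum count 10 and minimum total 15, quasi-likelihood F tests, 6 groups in 1 fit, 12 contrasts). Benjamini-Hochberg adjustment ran over all 17660 genes tested, with a threshold of 0.05. CPM use TMM-scaled library sizes. A standard error (SE) is the absolute log2 difference divided by the square root of its F statistic. It is unreliable where the difference is near 0. DESeq2 1.42.0 and 25 other alternatives were tried. The pipeline was tested on simulated data. A neighbour median covers up to 50 tested genes around a gene in RefSeq order, without OXPHOS genes and overlapping genes. Named were the called genes, the gene with the highest mean in each role, the smallest unadjusted p-value in each comparison of groups, the genes removed by the filter and called related genes. Other names were added after the values were seen. Genes and lists were chosen with earlier results of these data known. Replicates differed by slightly more than sampling noise (chi-square per degree of freedom 1.05 to 1.31 between pairs of a group), and none was merged.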

Additional observations from a re-analysis of the deposited data

How the results depend on the processing

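Each count of called OXPHOS genes was recomputed under 26 alternatives. With the library size as the only scaling it moved from 3 to 64 between the days in MLL-AF4 cells, from 0 to 87 with AF4-MLL and from 0 to 90 with co-expression, and from 1 to 0 between co-expression and AF4-MLL cells on day 3. Under this scaling NDUFA11 changed sign in MLL-AF4 cells (−0.14) and NDUFA10 in co-expression cells (−0.066), as the median of all genes moved with it. Without a filter on low counts the MLL-AF4 day count was 0, and it was 1 for co-expression against MLL-AF4 cells on day 3, as it was among genes averaging 30 counts or more. DESeq2's Wald test gave 0 for co-expression against AF4-MLL cells on day 3. Leaving out 1 library gave 0 to 3 called genes for the days in MLL-AF4 cells, 0 to 1 for the days in co-expression cells, and 0 to 1 in both comparisons of co-expression cells on day 3. In MLL-AF4 cells the count was 0 without replicate 1 or 3 of day 28 and 1 without replicate 1 or 2 of day 3. That gene was NDUFB2-AS1, which was not among the 3, without replicate 1, and NDUFA11 without replicate 2. The other 7 counts stayed at 0 under all alternatives run. The cause of the changes was not tested.

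The share of counts on OXPHOS genes outside the mitochondrial genome had log2 ratios of −0.26, −0.30 and −0.28 between the days, which became −0.059, −0.091 and −0.064 with protein-coding counts as denominator, a choice made after seeing the data. The medians of the OXPHOS genes relative to all genes were also followed after seeing the data. At an average of 30 counts or more, which left 37 OXPHOS genes, they were −0.0059 and −0.060 for co-expression against MLL-AF4 and AF4-MLL cells on day 3, in place of 0.104 and 0.082. Without replicate 1 of the co-expression cells the day 28 median against MLL-AF4 cells was 0.0045.

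Libraries with the same replicate number did not visibly deviate together (correlations from −0.091 to 0.037 over 6105 genes). Replicates of a group differed by little more than counting noise (chi-square per degree of freedom 1.05 to 1.31), so this check could miss a pairing. A replicate block left the counts at 3 called for the days in MLL-AF4 cells, 1 for co-expression against AF4-MLL cells on day 3 and 0 in the other 10 comparisons. At a median of 25 counts per library, the median standard error of 0.236 to 0.287 limits what could be called.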
